A study of Mus musculus with 12 samples.

Results

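Schip1, the gene for schwannomin-interacting protein 1, was described in mouse carotid arteries over 12 one-colour Illumina expression arrays. It was chosen by its array intensity, which was higher in arteries of fibulin-5 knockout mice than in those of wild-type mice. It is 1 of 19057 genes with a named probe on the array, and the platform annotation assigned it 2 of the 45281 probes, ILMN_2937320 and ILMN_1244514. Both probes are described. The levels that compare knockout with wild type are given without a test, since they were the basis of the choice.

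All animals were labelled C57Bl/6J. The left common carotid artery (LCA) had been partially ligated, which disturbs its flow, the right common carotid artery (RCA) had been left untouched, and both were taken 1 day later. The 4 groups were the ligated LCA of fibulin-5 knockout mice (KO LCA), the untouched RCA of knockout mice (KO RCA), the ligated LCA of wild-type mice (WT LCA) and the untouched RCA of wild-type mice (WT RCA), with 3 arrays each. The design text calls the same model both a knockdown and a KO of Fibulin V, and the labels give no age, sex or kind of allele. Whether each array of a group stands for another mouse is not said, so the p-values here reflect the variation among these arrays, part of which may be technical. Nor do the labels say that a left and a right artery with the same number came from 1 mouse. The untouched RCA belonged to an animal that had been operated on, so no artery here is from an animal without surgery.

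The protein is named for its binding to schwannomin, also called merlin, the product of the Nf2 tumour suppressor gene, which links the actin cortex to the membrane and acts upstream of the Hippo kinases. In neurons a longer form, made from a transcript that joins the neighbouring gene Iqcj to Schip1, is held at axon initial segments and nodes of Ranvier, where it binds ankyrin-G. In Drosophila, the Schip1 protein acts in Hippo signalling by helping the kinase Tao to activate Hippo.

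RefSeq on the GRCm38.p6 build places Schip1 on the plus strand of chromosome 3, from 68064802 to 68626482, a span of 561681 bases with 5 transcripts. Iqcj lies before it, from 67892220 to 68056593, and the joined gene, Iqschfp, runs from 67892220 to the last base of Schip1. The sequences of the array probes were not used here, so the transcripts that each probe reads are not known, and signal of Schip1 and Iqschfp cannot be told apart. RefSeq gives 3 start windows for Schip1, each from 250 bases before to 50 bases after a transcript's start. They are shown because the gene can be transcribed from starts that lie 403 kb and 104 kb apart, and the array gives no start-specific signal. Capitals mark a CArG box, the element that serum response factor binds, and CATTCC, the core of the element that TEAD factors bind, found on either strand.
Schip1 start 1, chr3:68064552-68064851: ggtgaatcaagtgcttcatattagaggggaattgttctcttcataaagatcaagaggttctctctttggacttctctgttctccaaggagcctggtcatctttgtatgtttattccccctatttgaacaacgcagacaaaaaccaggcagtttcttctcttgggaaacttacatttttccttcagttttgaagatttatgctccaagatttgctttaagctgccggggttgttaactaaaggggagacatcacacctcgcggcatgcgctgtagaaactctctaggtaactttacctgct
Schip1 start 2, chr3:68467933-68468232: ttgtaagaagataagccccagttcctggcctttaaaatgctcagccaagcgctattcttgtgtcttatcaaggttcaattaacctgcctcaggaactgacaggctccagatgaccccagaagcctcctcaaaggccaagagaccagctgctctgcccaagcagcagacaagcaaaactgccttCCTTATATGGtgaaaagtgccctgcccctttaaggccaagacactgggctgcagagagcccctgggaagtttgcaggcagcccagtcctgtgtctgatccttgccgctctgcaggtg
Schip1 start 3, chr3:68572118-68572417: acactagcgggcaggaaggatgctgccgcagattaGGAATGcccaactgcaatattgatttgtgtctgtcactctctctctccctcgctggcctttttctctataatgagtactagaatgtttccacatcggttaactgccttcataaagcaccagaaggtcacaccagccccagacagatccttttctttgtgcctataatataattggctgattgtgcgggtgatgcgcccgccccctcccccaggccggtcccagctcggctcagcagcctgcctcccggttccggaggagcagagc
The first window held neither element, and its GC content was 42.3% with 5 CpG sites, against medians of 52.7% and 7 over all RefSeq windows. In the second window, with 53.0% GC and 2 CpG sites, the 10 capitals CCTTATATGG match the CArG box and begin 67 bases before the start. In the third window, with 54.0% GC and 11 CpG sites, the capitals GGAATG are CATTCC read on the other strand and begin 215 bases before the start. A CArG box stood in 535 of 32851 windows of this length (1.63%), or at 1.81% of 27025 genes, and CATTCC stood in 4817 windows (14.7%), or at 16.6% of genes. The 2 motifs do not overlap here, and they were searched after the windows had been read. A match describes the letters and not the binding of a factor.

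ILMN_2937320 carried a clear Schip1 signal, and in it the 4 groups formed 4 separate steps. Its intensity was 341, 387 and 350 on KO LCA arrays 1 to 3, and 294, 278 and 319 on KO RCA arrays 1 to 3. It was 148, 156 and 116 on WT LCA arrays 1 to 3, and 203, 218 and 182 on WT RCA arrays 1 to 3. The 6 knockout arrays lay above the 6 wild-type arrays, the difference for which the gene was chosen. Neighbouring steps did not overlap: every KO LCA array exceeded every KO RCA array, and every WT RCA array exceeded every WT LCA array. Over the 32606 probes kept for the fit, all 6 KO arrays lay above all 6 WT arrays for 0.656%. KO LCA lay above KO RCA without overlap for 10.3%, and WT LCA below WT RCA for 6.07%. The group means were 359 ± 24.6 in KO LCA, 297 ± 20.3 in KO RCA, 140 ± 21.6 in WT LCA and 201 ± 17.9 in WT RCA (SD, n = 3 each). Bulk RNA cannot tell a lower share of cells that express the gene from less of its RNA in each cell.

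The signal was measurable above background in most arrays. Background was gauged from 1504 probes of olfactory and vomeronasal receptor genes, which are mostly expressed outside arteries, by the 95th percentile of their intensity on each array (the receptor level). ILMN_2937320 stood at 3.45 to 3.81 times this level in KO LCA, 2.81 to 3.10 times in KO RCA, 0.914 to 1.54 times in WT LCA and 1.71 to 2.26 times in WT RCA. It exceeded the level on 11 of 12 arrays. The exception was WT LCA array 3, where the probe read 115.5 and the receptor level was 126. The probe ranked between the 97.7th and 98.1st percentile of all probes on KO LCA arrays, the 97.0th and 97.5th on KO RCA arrays, the 84.7th and 92.5th on WT LCA arrays, and the 94.3rd and 95.7th on WT RCA arrays.

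**Figure D1:**
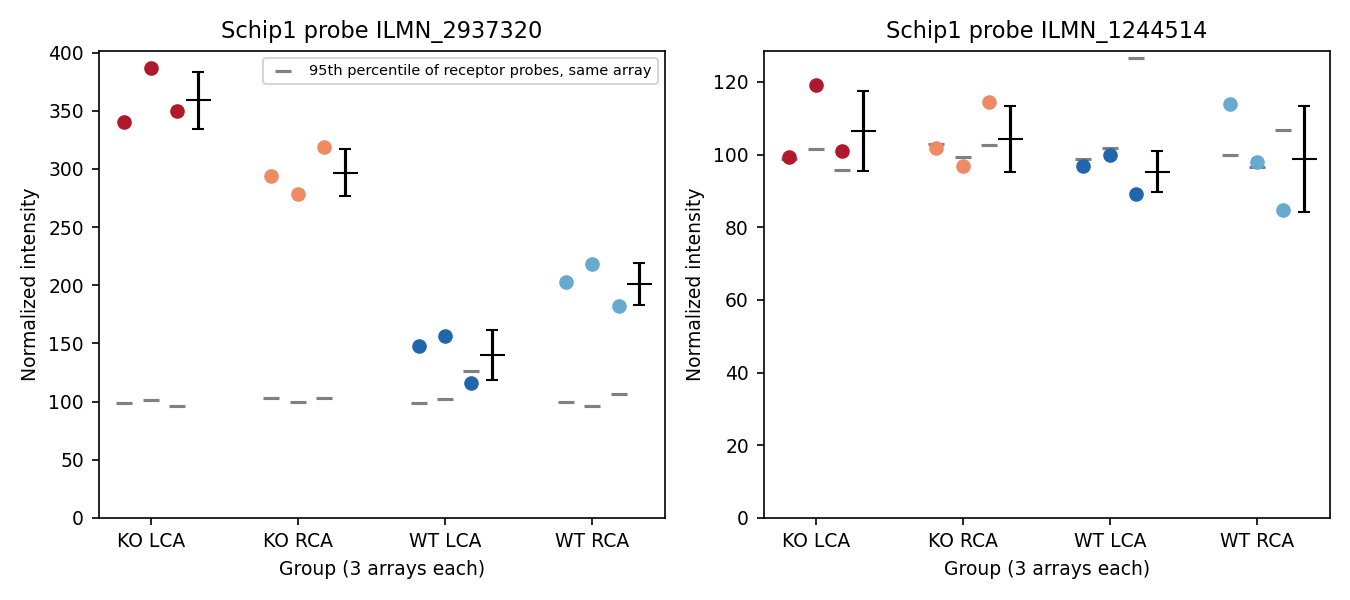
Intensity of the 2 Schip1 probes on each of the 12 arrays, by group, with the group mean and SD (n = 3 each); the receptor level of each array marks background. ILMN_2937320 forms 4 steps with means of 359 in KO LCA, 297 in KO RCA, 140 in WT LCA and 201 in WT RCA, while ILMN_1244514 stays between 84.8 and 119 in all groups.

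ILMN_1244514, the second Schip1 probe, did not show these steps. Its intensity was 99.3, 119 and 101 on KO LCA arrays 1 to 3, and 102, 96.9 and 114 on KO RCA arrays 1 to 3. It was 96.8, 99.9 and 89.0 on WT LCA arrays 1 to 3, and 114, 97.8 and 84.8 on WT RCA arrays 1 to 3. Every pair of groups overlapped, and the means were 106 ± 11.1 in KO LCA, 104 ± 9.03 in KO RCA, 95.3 ± 5.62 in WT LCA and 98.9 ± 14.6 in WT RCA (SD, n = 3 each). The probe exceeded the receptor level on all 3 KO LCA arrays, on 1 KO RCA array, on no WT LCA array and on 2 WT RCA arrays. Its values lay near the floor of the deposited data, whose lowest intensity was 72.4 and whose median was 93.6, where a fold change is compressed. The probes nevertheless ranked the arrays alike within groups: arrays 2, 3 and 1 in KO LCA, arrays 3, 1 and 2 in KO RCA, and arrays 2, 1 and 3 in WT LCA, from high to low on both. In WT RCA only the lowest array, number 3, was shared. With 3 arrays in a group, this is a description.

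The estimated difference between genotypes, for which Schip1 was chosen, was larger in the ligated artery. On ILMN_2937320, KO minus WT was 1.37 ± 0.12 on the log2 scale in the LCA (SE), a 2.58-fold higher intensity, and 0.56 ± 0.12 in the RCA, a 1.48-fold higher intensity. The difference between these differences was 0.81 ± 0.16, a value that holds the same genotype comparison and is likewise given without a test. On ILMN_1244514 the same comparison gave 0.16 ± 0.12 in the LCA and 0.08 ± 0.12 in the RCA, so the probes share a sign and disagree in size. These estimates come from a limma fit on the 4 group means over 32606 kept probes. Over those probes, the share whose 3 KO arrays lay above the 3 WT arrays without overlap was 7.56% in the LCA and 6.02% in the RCA, and all 6 KO arrays lay above all 6 WT arrays for 0.656%. At an adjusted p under 0.05, limma called 12 probes (0.0368%) in the LCA and 0 (0%) in the RCA, where 1369 had an unadjusted p under 0.05; nothing is read from these counts for Schip1.

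The deposited values hold a floor, and its removal changes the size of the Schip1 difference. After each array's median receptor intensity was subtracted, ILMN_2937320 held 270 ± 24.2 in KO LCA, 206 ± 19.9 in KO RCA, 49.8 ± 22.7 in WT LCA and 111 ± 19.3 in WT RCA (SD, n = 3 each). KO minus WT was then 2.57 ± 0.73 in the LCA, or 5.93-fold, and 0.90 ± 0.73 in the RCA, or 1.87-fold, on the log2 scale with SE. The direction stayed the same and the standard errors were larger. Values under 1 after the subtraction were set to 1 before log2. Limma draws each SE partly from the spread of all kept probes, dim ones included, so these SEs are not the spread of ILMN_2937320 alone. ILMN_1244514 held 17.8 ± 10.6, 13.7 ± 8.73, 5.18 ± 6.78 and 9.02 ± 15.1 in KO LCA, KO RCA, WT LCA and WT RCA after the subtraction, with SDs above the means in both wild-type groups.

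The comparison of the ligated with the untouched artery was not itself used to choose Schip1. Within each genotype it shares its arrays with the genotype comparison that was, so its p-values there may not be free of the choice. ILMN_2937320 ran in opposite directions in the 2 genotypes. In knockout mice the LCA exceeded the RCA by 0.27 ± 0.12 on the log2 scale (SE; 95% interval 0.01 to 0.54), a 1.21-fold difference. In wild-type mice the LCA was below the RCA, with a difference of -0.53 ± 0.12 (-0.79 to -0.27), or 0.692 times its intensity. These SEs and intervals depend on the variance model. A limma fit with a variance trend and robust estimation gave an SE of 0.24 for both differences. Its unadjusted p was 0.266 in knockout and 0.0427 in wild type, and its adjusted p was 0.802 and 0.661. With the receptor median subtracted, the wild-type difference was -1.27 ± 0.73, or 0.414 times (limma adjusted p = 0.649), and the knockout difference 0.39 ± 0.73 (adjusted p = 0.912). Neither unsubtracted difference passed limma's test after Benjamini-Hochberg adjustment over the 32606 probes, with adjusted p = 0.645 in knockout (unadjusted 0.0409) and adjusted p = 0.521 in wild type (unadjusted 0.00113). No probe of the array passed in either comparison: 0 of 32606 (0%), with 2484 in knockout (7.62%) and 2213 in wild type (6.79%) at an unadjusted p under 0.05. Groups without overlap were common: LCA above RCA held for 10.3% of probes in knockout, and LCA below RCA for 6.07% in wild type. The exact two-sided permutation test gave p = 0.1 in each genotype, the smallest that 3 arrays against 3 allow.

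Averaged over both genotypes, LCA minus RCA for ILMN_2937320 was -0.13 ± 0.08 (95% interval -0.31 to 0.06), with limma adjusted p = 0.564. An exact permutation of the side labels within each genotype gave p = 0.45 over 400 labelings, where the smallest possible was 0.005. In this averaged comparison 0 of 32606 probes passed (0%), and 3489 (10.7%) had an unadjusted p under 0.05 in limma. The test of the difference between the 2 genotypes' flow effects was not made, because it contains the genotype comparison that chose the gene.

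For ILMN_1244514, LCA minus RCA was 0.03 ± 0.12 in knockout (limma adjusted p = 0.986) and -0.04 ± 0.12 in wild type (adjusted p = 0.924), each with its sign the same as that of the brighter probe. The average was -0.01 ± 0.08 (adjusted p = 0.969). Exact permutation gave p = 0.7 in knockout, 0.9 in wild type and 0.945 for the average. No flow difference was detectable with this probe.

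**Figure D2:**
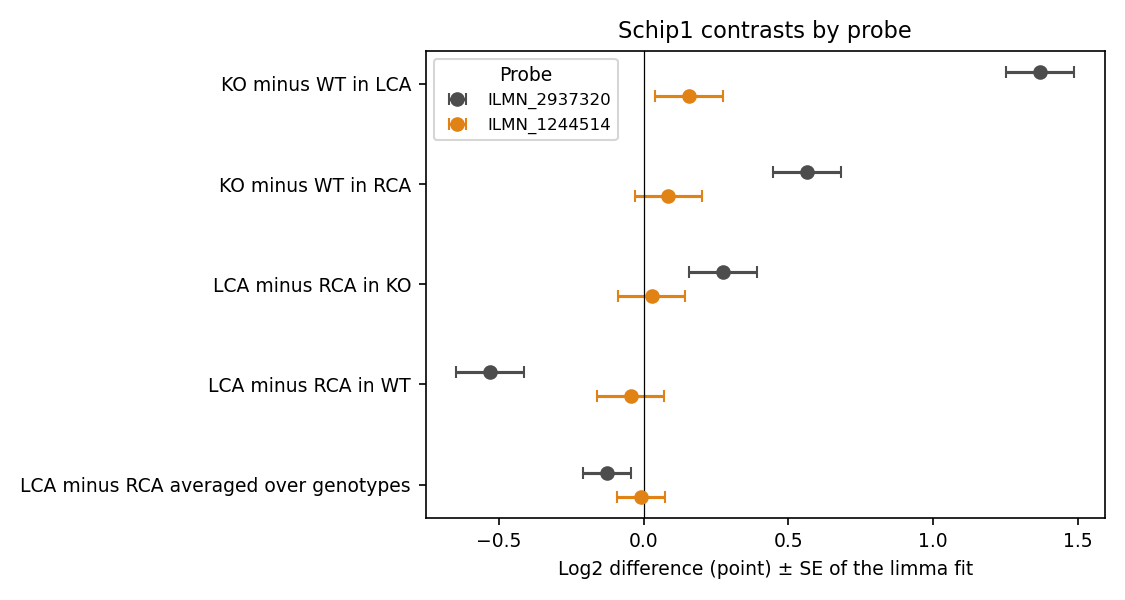
Log2 differences of the 2 Schip1 probes with SE from limma, for KO minus WT in each artery and LCA minus RCA in each genotype and on average. ILMN_2937320 reaches 1.37 for KO minus WT in the LCA and lies at 0.27 and -0.53 for LCA minus RCA in knockout and wild type, while the values of ILMN_1244514 lie between -0.04 and 0.16.

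The complete order of ILMN_2937320, with KO LCA highest, KO RCA next, then WT RCA and WT LCA, and no overlap at any step, includes the knockout-over-wild-type difference that chose Schip1, so the number of other probes with it is a description and supports nothing about the gene. It was found for 5 of 32606 probes (0.0153%), and for 2 of 15395 genes (0.013%) when the probe with the highest mean log2 intensity stood for its gene. The other gene was Gspt1, which encodes the translation termination factor eRF3a. Gspt1 averaged 165 ± 10.9 in KO LCA, 142 ± 3.42 in KO RCA, 111 ± 13.6 in WT LCA and 130 ± 3.21 in WT RCA (SD, n = 3 each). Its LCA minus RCA was 0.22 in knockout and -0.24 in wild type on the log2 scale, against 0.27 and -0.53 for Schip1. The other kept probe of Gspt1 had KO minus WT in the LCA of 0.10, against 0.58 for this one.

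WT LCA array 3, which held the lowest Schip1 value, stood apart from the other arrays. Its median correlation with the other 11 arrays over probes was 0.691, against 0.781 to 0.865 for the rest, and 15.99% of genes exceeded the receptor level on it, against 28.6% to 48.6%. Without it, KO minus WT in the LCA was 1.24 ± 0.09, or 2.36-fold, the wild-type LCA minus RCA was -0.40 ± 0.09 (limma adjusted p = 0.470), and the difference between differences was 0.67 ± 0.12. The array with the next lowest correlation was WT RCA array 3, at 0.781, also the lowest Schip1 value of its group. Without both arrays, KO minus WT was 1.24 in the LCA and 0.50 ± 0.08 in the RCA, and LCA minus RCA was 0.27 in knockout (limma adjusted p = 0.421) and -0.47 in wild type (adjusted p = 0.297). The targeted gene gives no check of the labels: the single Fbln5 probe read 80.6 to 97.4 and exceeded the receptor level on 0 arrays, with means of 84.7 ± 3.42 in KO LCA, 89.0 ± 8.36 in KO RCA, 87.3 ± 0.766 in WT LCA and 86.8 ± 1.68 in WT RCA (SD, n = 3 each).

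The genes most like Schip1 were ranked by the Pearson correlation of log2 intensity with ILMN_2937320 over the 12 arrays, among 14755 named genes. The arrays share their groups and their RNA quality, so the values are descriptions. The median correlation was -0.02, the 95th percentile 0.61, and 22 genes exceeded 0.9. The 8 most alike were Hspa9 (0.957), the mitochondrial Hsp70, Tsc22d2 (0.948), Tgfb2 (0.946), a transforming growth factor beta ligand, Hars (0.944), the histidyl-tRNA synthetase, Gspt1 (0.943), Slc39a13 (0.936), the zinc transporter ZIP13, Tbc1d1 (0.931), a Rab GTPase-activating protein, and Tpm1 (0.931), a tropomyosin of the actin filament. The 4 most opposite were Clec9a (-0.964), a dendritic cell lectin, Tbc1d8 (-0.940), Tm6sf1 (-0.898) and Olfr197 (-0.892), an olfactory receptor whose signal is at background.

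Hspa9, Tgfb2 and Tpm1 had their highest mean in KO LCA and their lowest in WT LCA, as Schip1 did. Hspa9 averaged 268 ± 17.9 in KO LCA, 229 ± 35.9 in KO RCA, 124 ± 28.9 in WT LCA and 154 ± 13.0 in WT RCA. Tgfb2 averaged 456 ± 60.6, 366 ± 59.2, 140 ± 23.1 and 186 ± 70.8 in KO LCA, KO RCA, WT LCA and WT RCA. Tpm1 averaged 777 ± 208, 474 ± 88.1, 196 ± 50.1 and 240 ± 28.4 in the same groups (SD, n = 3 each). Clec9a ran the other way, with 114 ± 2.71 in KO LCA, 125 ± 23.0 in KO RCA, 228 ± 27.3 in WT LCA and 190 ± 14.0 in WT RCA (SD, n = 3 each). Most second probes gave smaller values. KO minus WT in the LCA was 1.14 for Hspa9 against 0.84 for its other kept probe, and 1.98 for Tpm1 against 1.29 to 1.63 for its others. It was 1.02 for Tsc22d2 against 0.26, 0.45 for Hars against -0.0013, 0.75 for Slc39a13 against -0.095 to -0.043, 0.43 for Tbc1d1 against -0.03 to 0.06, and -0.998 for Clec9a against -0.05. Tgfb2 had no other kept probe. The sequence table used here matched 5 of the 8 genes (Tgfb2, Gspt1, Slc39a13, Tbc1d1 and Tpm1), of which 0 held a CArG box in a start window and 1, Tpm1, held CATTCC.

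**Figure D3:**
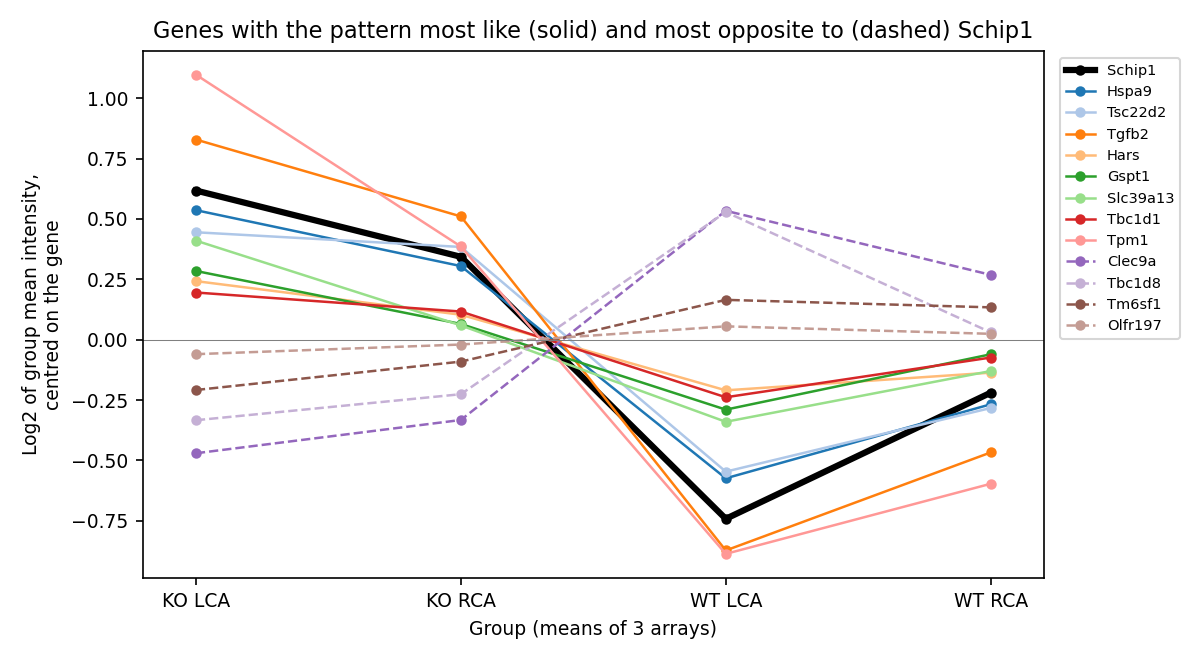
Log2 of the group mean intensity (3 arrays each), centred on each gene, for the 8 genes most like Schip1 (solid), the 4 most opposite (dashed) and ILMN_2937320 of Schip1 (thick line). The solid lines are highest in KO LCA and lowest in WT LCA, and over the 12 arrays Hspa9 has the highest correlation, 0.957, and Clec9a the lowest, -0.964.

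The ranking changed with the measure of likeness. When each gene's group means were removed first, the correlation of the 8 genes with Schip1 was 0.52 to 0.82, and 0 of the 12 named genes stayed among the 8 highest or 4 lowest. The genes that then led were Uhrf1bp1l (0.953), Anp32a (0.948), Hscb (0.941) and Kdm3b (0.940). Without WT LCA array 3, 8 of the 12 stayed among them, and with Spearman's rank correlation 7 did.

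No member of 5 lists of genes around Schip1, its merlin partners, the Hippo kinases, YAP and TEAD, the ankyrin and node proteins, and the PDGF system, passed limma's test over the 15395 genes in KO minus WT in either artery or in the averaged LCA minus RCA. Over those genes 1 passed in KO minus WT in the LCA (0.0065%), 0 in the RCA (0%) and 0 in the averaged LCA minus RCA (0%), with 1059 (6.88%), 659 (4.28%) and 1531 (9.94%) at an unadjusted p under 0.05. Schip1 itself is among those genes and was chosen on its KO minus WT values, so nothing is read from these counts for it. Of the merlin and ERM list, 5 of 6 members were tested. Nf2, which encodes merlin itself, averaged 100 ± 4.49 in KO LCA, 128 ± 52.0 in KO RCA, 101 ± 6.83 in WT LCA and 99.5 ± 6.51 in WT RCA (SD, n = 3 each), and KO minus WT was -0.01 ± 0.21 in the LCA and 0.30 ± 0.21 in the RCA. Msn, the actin linker moesin, averaged 571 ± 213, 365 ± 71.6, 267 ± 65.0 and 281 ± 63.6 in KO LCA, KO RCA, WT LCA and WT RCA, with KO minus WT in the LCA of 1.06 ± 0.29 (limma adjusted p = 0.397), while its 2 other kept probes gave 0.06 to 1.18. Rdx, the related linker radixin, was at 0.01 in the LCA, and the scaffold genes Slc9a3r1 and Slc9a3r2 were at 0.32 and -0.17. In KO minus WT in the LCA, 3 of these 5 were higher and 2 lower, with a median of 0.01 against -0.01 over all genes, and in the RCA 3 were higher and 2 lower, with a median of 0.25 against 0.00.

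Over all genes, KO minus WT was above 0 for 47.2% in the LCA and 51.0% in the RCA, with medians of -0.01 and 0.00. Averaged LCA minus RCA was above 0 for 49.4%. An unadjusted limma p under 0.05 held for 6.88% of genes in the LCA and 4.28% in the RCA. Of the Hippo kinase list, 15 of 17 members were tested. In KO minus WT in the LCA, 11 were higher and 4 lower, with a median of 0.06, and 2 had an unadjusted p under 0.05: Mob1b, a co-activator of the Lats kinases, at 0.40 ± 0.08 (limma adjusted p = 0.146; its 2 other kept probes -0.0050 to 0.34), and Lats1, one of those kinases, at 0.20 ± 0.07 (adjusted p = 0.575; its other probe 0.09). In the RCA 7 were higher and 8 lower, with a median of -0.00. Lats1 was at 0.24 ± 0.07 there (limma unadjusted p = 0.00704), while its other kept probe was at -0.19. Ajuba was at 0.52 ± 0.23 in the RCA (limma unadjusted p = 0.0514), with its other kept probe at 0.42. In the averaged LCA minus RCA 6 were higher and 9 lower, with a median of -0.03. Sav1, the scaffold of the Hippo kinases, was at -0.19 ± 0.07 (limma adjusted p = 0.474). Amotl1 was at -0.98 ± 0.37 (limma adjusted p = 0.476), with its other kept probe at -0.40. Of the YAP and TEAD list, 14 of 15 were tested. KO minus WT was above 0 for 10 in the LCA and for 12 in the RCA, against 47.2% and 51.0% of all genes. The list's medians were 0.10 and 0.09. At an unadjusted p under 0.05 in limma, 3 were higher in the LCA and 1 in the RCA. Ccn2, a secreted matrix protein and a target of YAP, averaged 1862 ± 384 in KO LCA, 832 ± 98.1 in KO RCA, 790 ± 278 in WT LCA and 227 ± 88.6 in WT RCA (SD, n = 3 each). Its KO minus WT was 1.27 ± 0.30 in the LCA (limma adjusted p = 0.271) and 1.94 ± 0.30 in the RCA (adjusted p = 0.256), and its averaged LCA minus RCA was 1.48 ± 0.21 (adjusted p = 0.237). The mean of Ccn2 was higher in the LCA than in the RCA in both genotypes, whereas that of Schip1 was higher in knockout and lower in wild type. Ccn1, a related matrix protein and YAP target, named after its values were seen, had KO minus WT in the LCA of 2.17 ± 0.74 (limma adjusted p = 0.537). Axl had KO minus WT in the LCA of 0.23 ± 0.08 (limma adjusted p = 0.533), with its other kept probe at -0.05. Amotl2 had KO minus WT in the RCA of 0.11 ± 0.06. In the averaged LCA minus RCA, Vgll4 was at -0.09 ± 0.04 (limma adjusted p = 0.513).

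KO minus WT was above 0 for 47.2% of all genes in the LCA and 51.0% in the RCA. Of the ankyrin, spectrin and axonal node list, 11 of 14 were tested, with 4 higher and 7 lower in KO minus WT in the LCA (median -0.04) and 8 higher and 3 lower in the RCA (median 0.03). The largest of those named was Calm2, a calmodulin, at 0.84 ± 0.21 in the LCA (limma adjusted p = 0.279), against 0.09 to 0.32 for its 2 other kept probes. In the RCA Calm2 was at 0.37 ± 0.21 and Sptbn4 at 0.13 ± 0.15. Nrcam was at -0.14 ± 0.06 in the LCA (limma adjusted p = 0.713), with its other kept probe at -0.0075. In the averaged LCA minus RCA, Sptbn1 was at -0.43 ± 0.20 (limma adjusted p = 0.507) and Calm2 at 0.24 ± 0.15 (adjusted p = 0.575). Of the PDGF list, 5 of 6 were tested, with 3 higher and 2 lower in both arteries and medians of 0.21 in the LCA and 0.02 in the RCA. Pdgfb, a platelet-derived growth factor chain, was at 0.58 ± 0.17 in the LCA (limma adjusted p = 0.436) and 0.55 ± 0.17 in the RCA (adjusted p = 1.00). Pdgfa was at -0.75 ± 0.77 in the RCA, and Pdgfra at 0.21 ± 0.11 in the LCA (limma adjusted p = 0.760). In the averaged LCA minus RCA, Pdgfb was at 0.24 ± 0.12 (limma adjusted p = 0.535) and Pdgfra at 0.09 ± 0.08 (adjusted p = 0.670).

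**Figure D4:**
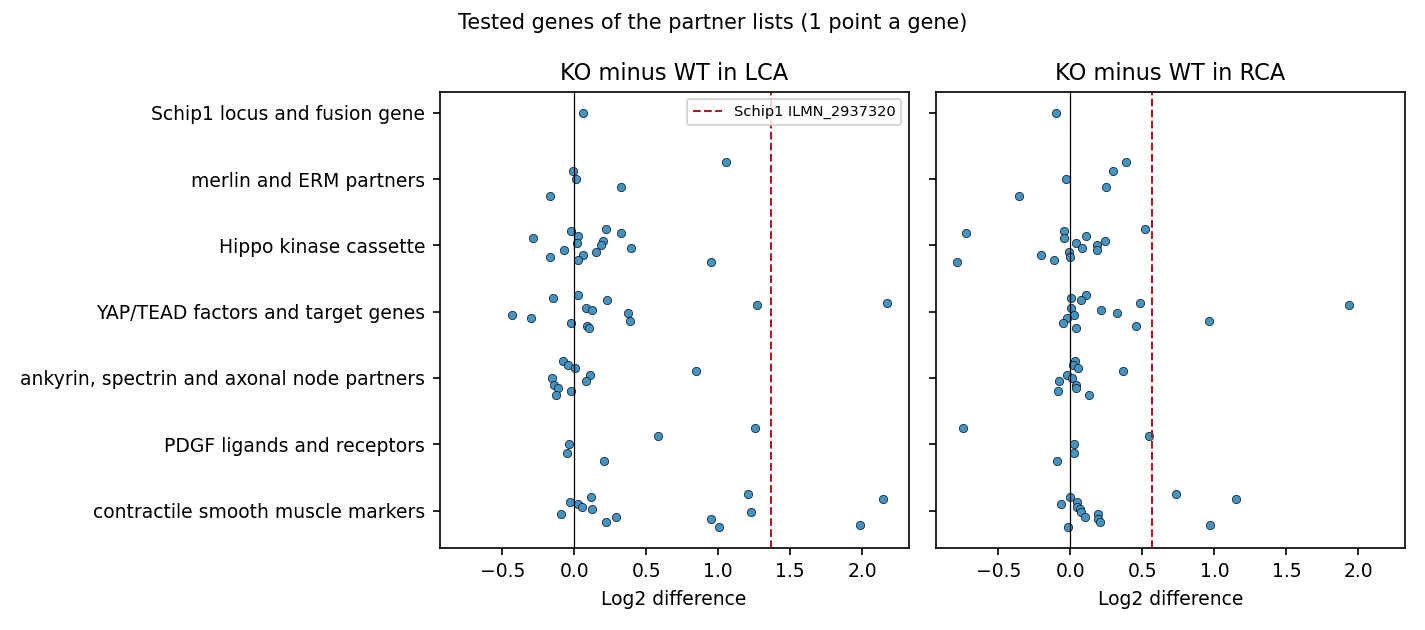
KO minus WT log2 differences in the LCA and in the RCA for the tested members of the lists around Schip1 and of the contractile markers, 1 point a gene, with ILMN_2937320 of Schip1 as a dashed line. Most points lie nearer 0 than Schip1, at 1.37 in the LCA, with Ccn1 at 2.17 there and Ccn2 at 1.94 in the RCA among the exceptions.

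Genes beside Schip1 on chromosome 3 had smaller estimates. The 10 nearest with a probe, 5 on each side at 8.21 to 601 kb, included 8 that were tested, and none passed limma's test in either artery (adjusted p of at least 0.771 in the LCA and 1.00 in the RCA). Iqcj, whose transcript can join Schip1, exceeded the receptor level on 0 of 12 arrays, with means of 95.3 in KO LCA, 83.2 in KO RCA, 91.4 in WT LCA and 89.3 in WT RCA, and KO minus WT was 0.06 ± 0.07 in the LCA and -0.10 ± 0.07 in the RCA. Trim59, a ubiquitin ligase gene, exceeded it on all 12 arrays and had KO minus WT of -0.16 ± 0.13 in the LCA and -0.39 ± 0.13 in the RCA, opposite in sign to Schip1. Smc4, a condensin subunit gene, was at -0.06 ± 0.07 and -0.22 ± 0.07 in these comparisons.

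**Figure D5:**
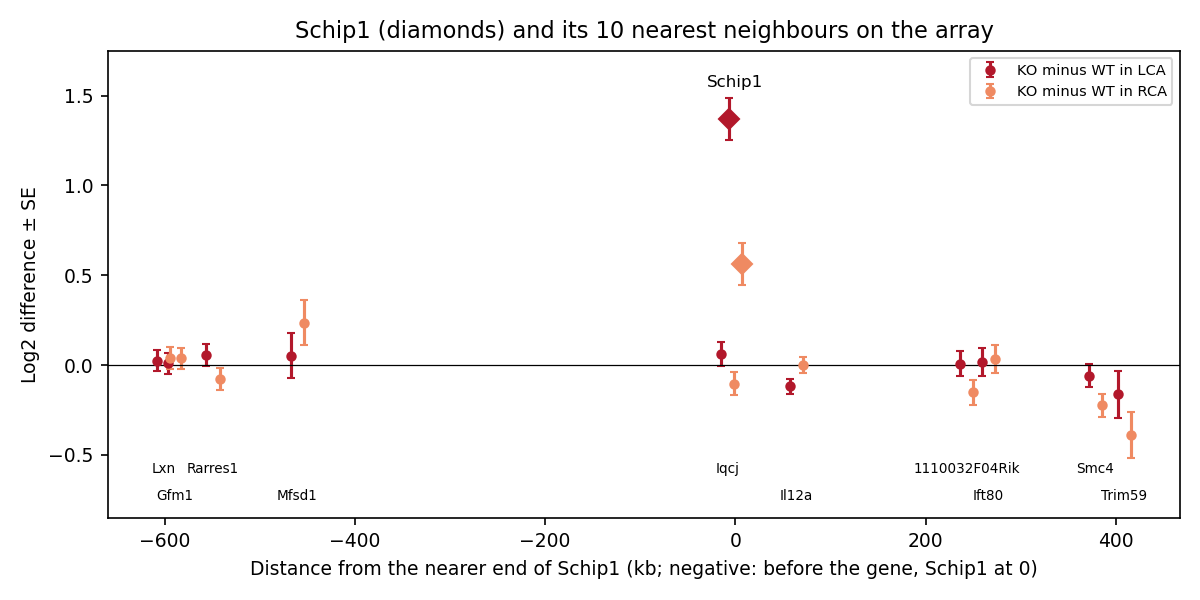
KO minus WT log2 difference with SE in the LCA and the RCA for Schip1 and the 5 nearest genes with a probe on each side, against the distance in kb from the nearer end of Schip1. Schip1 stands at 1.37 in the LCA, while the neighbours lie between -0.16 and 0.06 there.

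No marker gene passed limma's adjusted threshold in any comparison, while some marker sums moved with the groups. The summed intensity of 15 contractile smooth muscle genes was 3525 to 4966 in KO LCA, 2596 to 3108 in KO RCA, 1680 to 2222 in WT LCA and 1982 to 2105 in WT RCA, so that the 6 knockout arrays lay above the 6 wild-type arrays, and KO LCA above KO RCA, as for Schip1, while the wild-type arteries overlapped. Of the 14 tested, KO minus WT was above 0 for 12 in the LCA and 12 in the RCA, with medians of 0.25 and 0.09, against 47.2% and 51.0% of all genes above 0. At an unadjusted p under 0.05, 7 of the 14 were higher in the LCA and 4 in the RCA, against 6.88% and 4.28% of all genes in either direction. Acta2, the smooth muscle actin, averaged 851 ± 143 in KO LCA, 605 ± 84.995 in KO RCA, 367 ± 51.7 in WT LCA and 366 ± 68.4 in WT RCA (SD, n = 3 each). Its KO minus WT in the LCA was 1.21, with 0.01 to 2.13 over its 5 other kept probes, and Myh11 stayed near background at 102, 103, 92.9 and 98.1. Tagln averaged 110, 106, 94.5 and 91.7 in the same groups, and exceeded the receptor level on 0 arrays of either wild-type group. Of the 15 genes, 9 exceeded the receptor level on all 3 arrays in KO LCA, 7 in KO RCA, 2 in WT LCA and 5 in WT RCA. Tpm1 is both in this list and among the genes most like Schip1. The summed intensity of 11 fibroblast genes was 1749 to 2458 in KO LCA, 1615 to 1859 in KO RCA, 1154 to 1589 in WT LCA and 1451 to 2383 in WT RCA, with 10 of 11 above 0 in KO minus WT in the LCA and 5 of 11 in the RCA. In the LCA 7 of them were higher at an unadjusted p under 0.05. The sums of 13 endothelial genes were 3584 to 6179, 4239 to 5352, 3730 to 4404 and 4479 to 5469 in KO LCA, KO RCA, WT LCA and WT RCA. They overlapped between knockout and wild type in each artery, but WT LCA lay below WT RCA without overlap, as Schip1 did. The sums of 10 adipocyte genes were 1318 to 1703 in KO LCA, 947 to 1148 in KO RCA, 953 to 1172 in WT LCA and 976 to 1174 in WT RCA, so KO LCA stood above the other groups. The sums of 11 macrophage and leukocyte genes and of 9 skeletal muscle genes overlapped between knockout and wild type in each artery, and no skeletal muscle gene exceeded the receptor level on all 3 arrays of a group. The sums of 8 erythrocyte and platelet genes were 2430 to 4880, 2827 to 9983, 2421 to 3669 and 1331 to 3205 in KO LCA, KO RCA, WT LCA and WT RCA. Their KO minus WT was above 0 for 8 of 8 in the RCA (median 0.49) and for 6 of 8 in the LCA (median 0.22). At an unadjusted p under 0.05 in limma, 2 were higher in the RCA and 1 in the LCA. The sums of 15 Schwann cell and neuron genes overlapped across all groups, at 1406 to 1459, 1389 to 1449, 1394 to 1562 and 1433 to 1557, and Sox10, which defines Schwann cells, exceeded the receptor level on 0 arrays. Of the 15, 3 exceeded it on all 3 arrays in KO LCA, 0 in KO RCA, 0 in WT LCA and 1 in WT RCA. These sums therefore lie mostly at background and could hardly separate the groups. The part of cell make-up and of array quality in the Schip1 differences was not tested.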

How the data were processed

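RNA from 12 carotid arteries was measured on one-colour Illumina arrays. The authors deposited linear intensity values of 45281 probes, and each array holds the same sorted values within 0.562%, as quantile normalization gives; which software, background step or slides were used is not stated in the labels. The lowest intensity was 72.4 and the highest 10230. Per the platform annotation, 34885 probes had 1 gene symbol, 18 several and 10378 none. Probes at or above their array's median on at least 3 arrays were kept, 32606 in all, and the probe with the highest mean log2 intensity stood for each of 15395 genes. Log2 intensity was fitted in limma 3.58.1 (R 4.3.3) on 4 group means with eBayes, two-sided, with Benjamini-Hochberg adjustment over all kept probes or genes and a threshold of 0.05. The fit was tested on simulated data. Sequences came from RefSeq on GRCm38.p6.

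The 2 Schip1 probes, the gene lists and the marker lists were chosen with earlier results of these data known. Named genes were both Schip1 probes, the 8 genes most and 4 least correlated with the brighter one, passing over predicted genes and RIKEN clones, the 5 nearest genes on each side, and list members by a fixed rule. The rule took all of the merlin list and, of each other list, the 2 with the smallest p in each comparison. These comparisons were KO minus WT in the RCA, KO minus WT in the LCA, and the averaged LCA minus RCA. The deviations of same-numbered arteries had correlations of -0.0240 to 0.0446 in knockout and 0.0376 to 0.0883 in wild type. Differently numbered arteries gave -0.0618 to 0.0848 in knockout and -0.0609 to 0.0201 in wild type. The same-numbered values were thus all higher than the others in wild type, but not in knockout. The numbers were not used as pairs in the main fit, and whether same-numbered arteries came from the same mouse was not tested.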

Additional observations from a re-analysis of the deposited data

Results flagged for a closer look

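The 2 genotypes ran in opposite directions for Schip1 between the ligated and the untouched artery. On ILMN_2937320, LCA minus RCA was 0.27 (log2) in knockout and -0.53 in wild type. In knockout every LCA array lay above every RCA array, and in wild type every one lay below. Groups without overlap in these directions held for 10.3% of the 32606 kept probes in knockout and 6.07% in wild type. Neither difference passed limma's test (adjusted p = 0.645 in knockout and 0.521 in wild type). The difference between the genotypes was not tested, because the gene had been chosen on the genotype comparison. ILMN_1244514 did not show it, at 0.03 in knockout and -0.04 in wild type.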

How the results depend on the processing

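For ILMN_2937320 every alternative run kept the direction. With 1 array left out, KO minus WT lay at 1.24 to 1.46 in the LCA and 0.50 to 0.62 in the RCA, their difference at 0.67 to 0.89, and LCA minus RCA at 0.22 to 0.33 in knockout, -0.62 to -0.40 in wild type and -0.17 to -0.06 on average. Subtracting the receptor median gave 2.57 and 0.90 for KO minus WT in the LCA and in the RCA, 1.66 for their difference, and 0.39, -1.27 and -0.44 for LCA minus RCA in knockout, in wild type and on average. Over all alternatives the limma adjusted p of LCA minus RCA was 0.281 to 0.912 in knockout, 0.249 to 0.858 in wild type and 0.418 to 0.739 on average. ILMN_1244514 changed sign with single arrays left out: LCA minus RCA ran from -0.057 to 0.096 in knockout, -0.15 to 0.063 in wild type and -0.061 to 0.045 on average, KO minus WT in the RCA from -0.021 to 0.19 and the difference between differences from -0.036 to 0.18; without WT LCA 3 and WT RCA 3, an alternative chosen after seeing the data, KO minus WT in the RCA was -0.021. The cause was not tested. With 1 array left out, the number of probes called ran from 0 to 5 for LCA minus RCA in knockout, 0 to 9 in wild type, 0 to 3 on average, 0 to 26 for KO minus WT in the LCA, 0 to 6 in the RCA and 0 to 4 for the interaction, and of genes from 0 to 6, 0 to 11, 0 to 4, 0 to 21, 0 to 3 and 0 to 3 in the same order. Without WT LCA 3 and WT RCA 3, 12 probes and 11 genes were called for LCA minus RCA in wild type, 4 and 3 on average, 7 and 5 for KO minus WT in the RCA, and 16 genes in the LCA. Against 12 probes and 1 gene for KO minus WT in the LCA, the receptor subtraction called 2 probes, and 2 in the RCA; array weights called 4 probes and 2 genes, and 1 probe and 1 gene for LCA minus RCA in wild type and 1 gene on average; no filter called 1 probe; a variance trend, or the compared groups alone, called 0 probes and 0 genes. With a replicate block over all groups 0 probes were called there; within genotype it left LCA minus RCA at 0.27 ± 0.08 in knockout (limma adjusted p = 0.699) and -0.53 ± 0.08 in wild type (adjusted p = 0.553), with no change of call for Schip1. Of the 12 genes named for likeness, 7 recurred with Spearman and 0 with deviations from group means. The number of arrays and the weak signal of ILMN_1244514 limit the precision.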
